A study of Mus musculus with 24 samples.

Results

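The levels of 9 complement genes were measured by RNA sequencing in 24 mouse brain libraries: C1qa, C1qb, C1qc, C3, C4b, Serping1, C3ar1, C5ar1 and Cd59a. The genes were chosen by name, as complement components, regulators and receptors, and found through the Ensembl gene IDs of the count tables. All 9 passed the filter on low counts, among 19726 genes tested of 52636 gene IDs listed. A further 50 complement genes were read alongside them.

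The study set neuronal against astrocytic deficiency of EAAT2, the glutamate transporter encoded by Slc1a2, in whole-tissue RNA of brain. The syn-Cre-positive mice are given as EAAT2−/− and their syn-Cre-negative controls as EAAT2+/+. The gfap-Cre-positive mice are given as EAAT2Δ/+ and their gfap-Cre-negative controls as EAAT2+/+. Each of these groups had 6 mice, with 1 library per mouse. The labels name neither age, sex and strain nor the brain region. The lines differ in Cre driver and, among Cre-positive mice, in the state of the EAAT2 alleles, and in a difference between lines these and the lines themselves cannot be told apart.

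Complement is a cascade of plasma and tissue proteins that marks targets for removal. In the classical pathway C1q binds a target, C4 and C2 are cleaved, and C3 is split into an opsonin and the anaphylatoxin C3a. In brain, C1q is known as a product of microglia, and C1q, C3 and C4 are known for their part in the removal of synapses during development. C3a and C5a act on the receptors C3ar1 and C5ar1, while C1 inhibitor (Serping1) and CD59 hold the cascade back at its first and last steps.

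The libraries held 41596313 to 69652824 counts in genes. Slc1a2 averaged 3012 ± 212.6 CPM (counts of a gene scaled to a fixed total per library) in syn-Cre-positive and 3322 ± 98.66 CPM in syn-Cre-negative brains (SD, n = 6 each). It averaged 3480 ± 290.1 CPM in gfap-Cre-positive and 3518 ± 542.3 CPM in gfap-Cre-negative brains, and it was not called in either line (edgeR adjusted p = 1 for both). The labels do not say which exons the alleles lose, so a count over the whole gene checks the labels only in part. Markers of neurons summed to 5771 to 8124 CPM and those of astrocytes to 1674 to 1966 CPM. Library syn-Cre-negative 5 stood apart with 7.46% of its reads ambiguous between genes. More than 1000 CPM of Ttr, a marker of choroid plexus, was found in 3 libraries of each syn group (1971 to 5015 CPM) and in 0 of 12 gfap libraries (21.1 to 223.7 CPM). In each gfap group 3 libraries had 4.47% to 5.35% of reads outside genes and the other 3 had 5.88% to 6.37%. All syn libraries had more, 7.52% to 11.1%, so the lines did not overlap in this measure. In a difference between lines it cannot be told apart from the lines themselves.

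The annotation (GENCODE, GRCm38) places the C1q genes side by side on the minus strand of chromosome 4. C1qb (ENSMUSG00000036905) spans 136880129 to 136886187, C1qc (ENSMUSG00000036896) 136889804 to 136893065 and C1qa (ENSMUSG00000036887) 136895917 to 136898803. C4b (ENSMUSG00000073418, 34728380 to 34743882) and C3 (ENSMUSG00000024164, 57203970 to 57228136) lie on chromosome 17. Serping1 (ENSMUSG00000023224) lies at 84765387 to 84775444 of chromosome 2. Cd59a (ENSMUSG00000032679, 104095801 to 104115354) lies on the same chromosome, 1.31 Mb from Slc1a2. C3ar1 (ENSMUSG00000040552) lies on chromosome 6 at 122847138 to 122856161 and C5ar1 (ENSMUSG00000049130) on chromosome 7 at 16246743 to 16259540.

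The sequences before 4 of the genes are shown because C1qb and C1qc are members whose levels moved together, C3 is the member that differed most between lines, and C5ar1 is the receptor that carries the same motif as C1qb and C1qc. Each is the stretch of 250 bases before the RefSeq start (GRCm38.p6), printed 5′ to 3′ on the gene's own strand, here the minus strand in each case. Capitals mark ACTTCCT, the reverse complement of AGGAAGT, a core of binding sites of the ETS factor PU.1.
C1qb, chr4:136886201-136886450: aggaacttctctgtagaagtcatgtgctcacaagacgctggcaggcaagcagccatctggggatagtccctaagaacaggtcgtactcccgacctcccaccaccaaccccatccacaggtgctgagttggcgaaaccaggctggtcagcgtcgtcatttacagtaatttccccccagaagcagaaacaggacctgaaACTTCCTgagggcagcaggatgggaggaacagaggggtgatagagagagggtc
C1qc, chr4:136892915-136893164: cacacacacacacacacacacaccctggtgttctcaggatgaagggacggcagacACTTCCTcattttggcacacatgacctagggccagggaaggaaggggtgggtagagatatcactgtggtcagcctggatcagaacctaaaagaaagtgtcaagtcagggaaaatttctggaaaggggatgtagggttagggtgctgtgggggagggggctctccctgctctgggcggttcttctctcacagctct
C5ar1, chr7:16259339-16259588: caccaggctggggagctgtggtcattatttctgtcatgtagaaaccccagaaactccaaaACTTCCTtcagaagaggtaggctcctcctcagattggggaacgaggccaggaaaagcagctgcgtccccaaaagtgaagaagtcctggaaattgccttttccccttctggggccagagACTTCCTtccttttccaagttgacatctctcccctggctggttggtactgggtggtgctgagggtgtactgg
C3, chr17:57228137-57228386: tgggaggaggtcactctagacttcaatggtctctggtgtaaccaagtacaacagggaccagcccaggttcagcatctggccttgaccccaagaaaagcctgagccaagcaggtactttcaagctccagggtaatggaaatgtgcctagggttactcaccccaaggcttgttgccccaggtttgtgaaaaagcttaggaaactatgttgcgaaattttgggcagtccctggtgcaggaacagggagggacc

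AGGAAGT was found on the reverse strand 53 to 47 bases before the C1qb start and 195 to 189 bases before the C1qc start. C5ar1 held it at 190 to 184 and at 72 to 66 bases before its RefSeq start. The GENCODE spans of C1qc and C5ar1, given above, reach upstream of these RefSeq starts, so the windows lie partly within the annotated genes. Each of the C5ar1 sites lies inside the GENCODE span of C5ar1, while the C1qc site lies outside that of C1qc. The motif is present, on either strand, in 7.69% of 32851 RefSeq promoter windows of the same length. Also searched on both strands were GAAA, any 2 bases and GAAA (IRF factors, in 2.98% of windows), GGG, any 2 bases and TTTCC (NF-kB, 1.41%), TATAAA (12.4%) and TGANTCA (AP-1, 6.75%). The C3 window held none of these 5 motifs. C3ar1 held the AP-1 motif, the NF-kB motif and TATAAA once each with no overlap between them, and Cd59a held the IRF motif once. Sequence was matched for 6 of the 9 genes.

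Scaled by exon length, the members covered a wide range of levels. C1qa (50.0 CPM per kb, mean of 24 libraries) and C1qb (46.8) led, followed by C4b (23.2), C1qc (23.0), Serping1 (2.56), Cd59a (1.29), C3 (0.80), C3ar1 (0.62) and C5ar1 (0.24). C1qa was above C1qb in 21 of 24 libraries. C4b was above C1qc in 10 of 12 syn libraries and in 0 of 12 gfap libraries. C3 was above C3ar1 in 12 of 12 syn libraries and in 0 of 12 gfap libraries. C5ar1 was the lowest of the 9 in mean level and lay below C3ar1 in all 24 libraries.

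**Figure D1:**
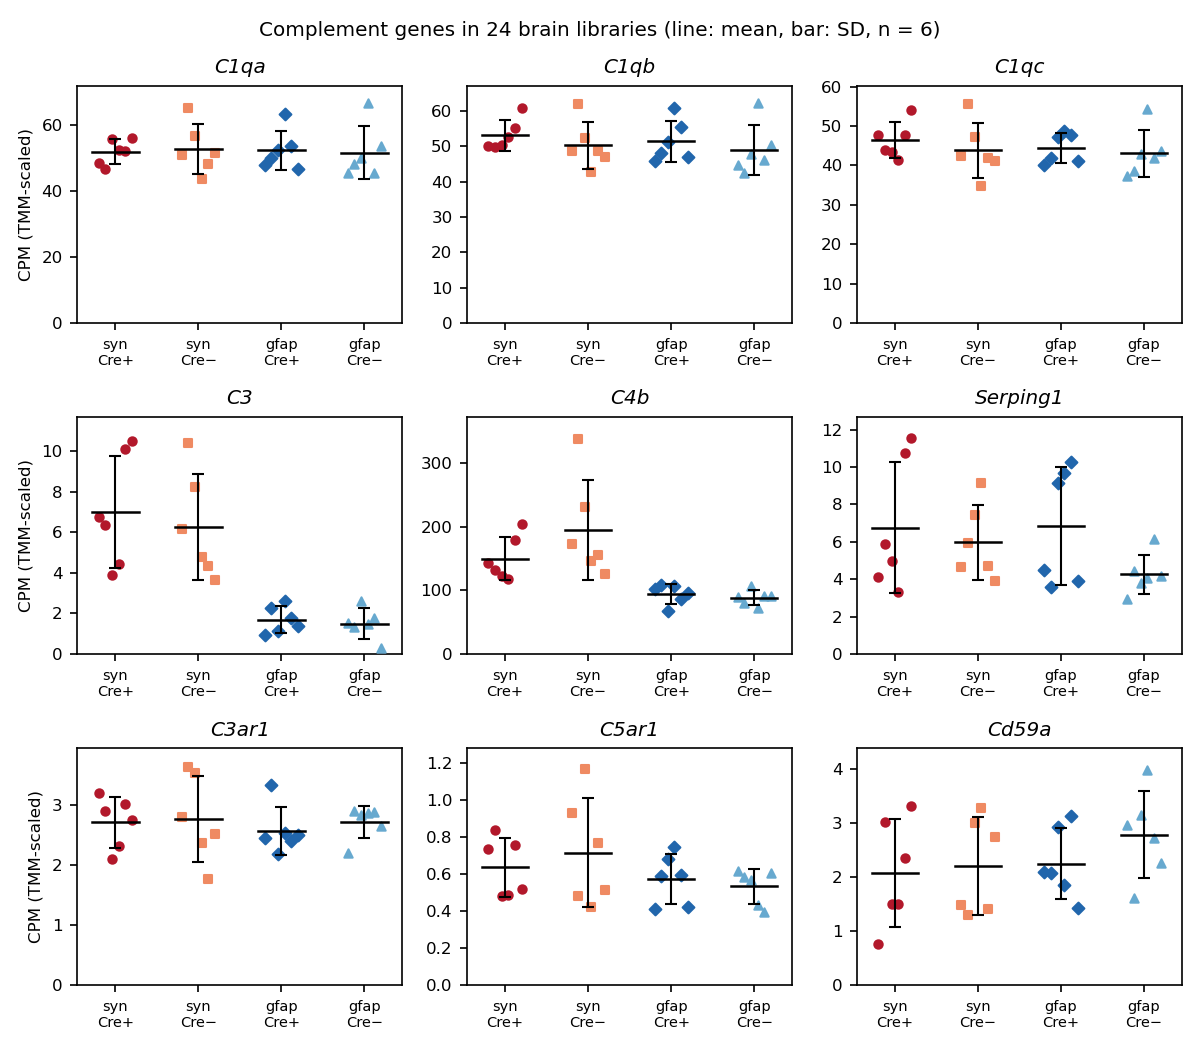
CPM of each complement gene (y axis, scaled by trimmed mean of M values) in the 6 libraries of each group (x axis), with each point a mouse, the long line the mean and the bar the SD. C3 and C4b separate the syn libraries from the gfap libraries, while the C1q ranges overlap in all groups.

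None of the 3 chains of C1q was called in any of the 5 comparisons, and the widest 95% interval in a comparison of 2 groups reached 1.21-fold. C1qa, which encodes the A chain of the recognition molecule of the classical pathway, had a lowest, median and highest value of 46.5, 52.1 and 56.1 CPM in syn-Cre-positive brains, against 43.5, 51.1 and 65.1 CPM in syn-Cre-negative brains. It had 46.6, 51.1 and 63.1 CPM in gfap-Cre-positive brains, against 45.3, 49.1 and 66.5 CPM in gfap-Cre-negative brains. The ranges overlapped throughout. Its log2 fold change was −0.02 (95% interval −0.21 to 0.17) for syn-Cre-positive over syn-Cre-negative and 0.02 (−0.17 to 0.21) for gfap-Cre-positive over gfap-Cre-negative. For both, edgeR's quasi-likelihood test gave an adjusted p of 1. The interval of the syn comparison corresponds to 0.86-fold to 1.13-fold.

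C1qb, the B chain, averaged 53.1 ± 4.33 CPM in syn-Cre-positive and 50.3 ± 6.61 CPM in syn-Cre-negative brains (SD, n = 6 each). It averaged 51.4 ± 5.80 CPM in gfap-Cre-positive and 48.9 ± 7.05 CPM in gfap-Cre-negative brains. C1qc, the C chain, averaged 46.3 ± 4.55 and 43.8 ± 7.04 CPM in syn-Cre-positive and syn-Cre-negative brains, and 44.4 ± 3.88 and 43.1 ± 6.01 CPM in gfap-Cre-positive and gfap-Cre-negative brains. The log2 fold changes of both genes in the Cre comparisons lay between 0.05 and 0.08, and neither was called. Their 95% intervals in both lines lay between −0.15 and 0.27.

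The C1q genes varied together from mouse to mouse. After each group's mean was subtracted from log2 CPM, C1qa and C1qb correlated with Pearson's r = 0.917 and Spearman's rho = 0.849 over 24 libraries. C1qb and C1qc gave r = 0.927 and rho = 0.889, and C1qa and C1qc gave r = 0.847 and rho = 0.732. Adjusted over the 36 pairs of members, the permutation p of r was at most 0.00036 and that of rho at most 0.00336. Without the 2 libraries farthest from the median of the first gene named, r was 0.847 for C1qa and C1qb, 0.87 for C1qb and C1qc and 0.728 for C1qa and C1qc. The relations held in 4 sets of 6 libraries, the syn libraries above and below 1000 CPM of Ttr and the gfap libraries with fewer and more reads outside genes, with r between 0.72 and 0.988.

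The sum of the C1q genes equalled 27.4% to 40.7% of the sum of 12 microglial markers, which include Csf1r and none of the members. In group means it was 34.7% in syn-Cre-positive, 34.0% in syn-Cre-negative, 30.7% in gfap-Cre-positive and 31.6% in gfap-Cre-negative brains. The marker sum itself was 435 ± 15.4 CPM in syn-Cre-positive and 429 ± 25.1 CPM in syn-Cre-negative brains, and 481 ± 21.1 CPM in gfap-Cre-positive and 455 ± 12.1 CPM in gfap-Cre-negative brains. Of the 12 markers 9 were positive in the syn and 12 in the gfap Cre comparison, with 0 called in either. Over 24 libraries the mean of the list correlated with C1qa at r = 0.62 and rho = 0.661 (permutation p adjusted over 99 relations 0.0294 and 0.015), with C1qb at r = 0.678 and rho = 0.768 (0.0137 and 0.00416) and with C1qc at r = 0.734 and rho = 0.775 (0.00396 and 0.00416). Without the 2 libraries farthest from the median of the list, r was 0.591 for C1qa, 0.72 for C1qb and 0.792 for C1qc. Libraries extreme in C1q itself could remain. The relation did not hold evenly within the sets of 6 libraries. It lay between 0.925 and 0.984 in the syn libraries above 1000 CPM of Ttr and between 0.516 and 0.678 in those below it. In the gfap libraries it lay between 0.091 and 0.338 with fewer reads outside genes and between 0.166 and 0.47 with more. Other lists passed the threshold too. C1qb correlated with the blood list at r = 0.605 (adjusted permutation p 0.0137). C1qc correlated with the astrocyte, ependymal and blood lists at r = 0.598, 0.566 and 0.543 (0.0447, 0.0384 and 0.0314). By rho the border macrophage list passed with C1qb (0.604, adjusted permutation p 0.0295) and with C1qc (0.559, 0.0497). The ependymal list passed by rho with C1qb (0.572, 0.0485), while the blood list did not with C1qc (0.383, 0.233). Syn-line r with the astrocyte list was 0.761, 0.76 and 0.825 (C1qa, C1qb, C1qc). With the microglial list it was 0.699, 0.723 and 0.775. The gfap line gave 0.216, 0.295 and 0.227 against 0.553, 0.644 and 0.687. With the ependymal list r was 0.5, 0.607 and 0.622 in the gfap line and 0.234, 0.45 and 0.535 in the syn line. Without the 2 farthest libraries the gfap line gave 0.736, 0.824 and 0.803 with the ependymal list. With the microglial list it then gave 0.596, 0.778 and 0.738. In the gfap line alone the microglial relations did not pass the threshold (adjusted permutation p of r 0.384, 0.279 and 0.191). In whole tissue, fewer cells of a type and less RNA per cell cannot be told apart.

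No member passed the threshold between Cre-positive and Cre-negative brains in either line. In the syn line 0 of 9 members were called, where 0.00507% of all genes tested were. In the gfap line 0 of 9 were called against 0.0101% of all genes, and in the difference between the Cre effects of the lines 0 of 9 were called, also against 0.0101%. At an unadjusted p under 0.05 the members numbered 0 in each of these comparisons, beside 922, 590 and 691 genes in all. DESeq2, which called 14, 2 and 3 genes in these comparisons, and limma-voom, which called 8, 2 and 3, also called 0 members. In both Cre comparisons 0 members had groups that did not overlap, beside 0.203% of all genes in the syn line and 0.198% in the gfap line. The median log2 fold change of the members was −0.02 in the syn line and 0.07 in the gfap line, where all genes tested had −0.003 in both.

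**Figure D2:**
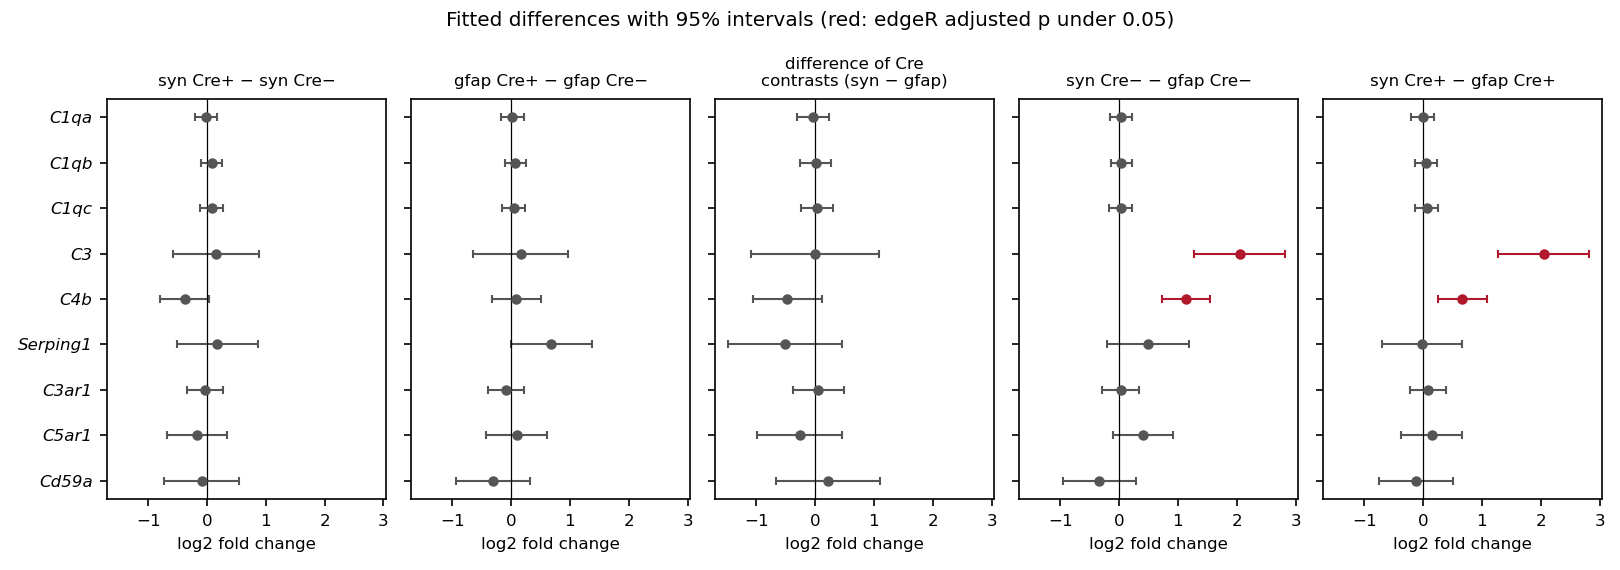
Log2 fold change (x axis) of each complement gene (rows) in the 5 comparisons fitted, with 95% intervals, red where edgeR's adjusted p was under 0.05. Only C3 and C4b are red, in the comparisons between lines, and the C1q intervals are the narrowest around 0.

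C4b, the complement component cleaved after C1q binds, had the largest shift of the members in the syn Cre comparison, though it was not called. It had 118, 138 and 204 CPM (lowest, median, highest) in syn-Cre-positive brains, against 126, 164 and 338 CPM in syn-Cre-negative brains. The groups overlapped, and the highest value belonged to library syn-Cre-negative 2. Its log2 fold change was −0.38 ± 0.20 (SE, unadjusted p = 0.0719, edgeR adjusted p = 1), and −0.15 without that library. In the gfap line C4b had 67.9, 98.8 and 108 CPM in gfap-Cre-positive brains, against 72.4, 90.5 and 107 CPM in gfap-Cre-negative brains. Its log2 fold change there was 0.09 ± 0.20 (edgeR adjusted p = 1), and the difference between the lines' Cre effects was −0.47 ± 0.28 (edgeR adjusted p = 1).

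Serping1, which encodes C1 inhibitor, had the largest shift of the members in the gfap Cre comparison. It had 3.60, 6.82 and 10.3 CPM in gfap-Cre-positive brains, against 2.97, 4.11 and 6.15 CPM in gfap-Cre-negative brains. Of the 6 gfap-Cre-positive libraries, 3 lay above every gfap-Cre-negative library. The log2 fold change was 0.69 ± 0.33 (SE, 95% interval −0.004 to 1.38, unadjusted p = 0.0520, edgeR adjusted p = 1). Those 3 libraries were the ones with fewer reads outside genes. They had 9.13 to 10.3 CPM, against 3.78 to 6.15 CPM in the 3 gfap-Cre-negative libraries of that kind. Among the libraries with more reads outside genes, Serping1 had 3.60 to 4.51 CPM in gfap-Cre-positive and 2.97 to 4.43 CPM in gfap-Cre-negative brains. With a term for this split, added after the data were seen, the log2 fold change was 0.57 (edgeR adjusted p = 0.999).

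Markers of border macrophages and of meningeal fibroblasts lay in the same direction as Serping1 in the gfap line. All 7 macrophage markers and all 7 fibroblast markers were positive in the gfap Cre comparison, with 0 called and median log2 fold changes of 0.51 and 0.39. Other lists were one-sided there as well, with 12 of 12 microglial, 8 of 8 astrocyte and 7 of 7 endothelial markers positive at medians of 0.10, 0.08 and 0.04, and 7 of 9 choroid plexus markers positive at a median of 0.28, again with 0 called. The macrophage list summed to 2.34 to 11.4 CPM in gfap-Cre-positive and 4.16 to 7.34 CPM in gfap-Cre-negative brains, and no marker of either list was at 0 in any library. The fibroblast list summed to 105 to 226 CPM in gfap-Cre-positive and 98.2 to 179 CPM in gfap-Cre-negative brains. Mrc1, the most abundant macrophage marker, averaged 2.74 CPM in gfap-Cre-positive and 2.10 CPM in gfap-Cre-negative brains. Over the 12 gfap libraries Serping1 correlated with the macrophage list at r = 0.935 and rho = 0.902 (permutation p adjusted over 99 relations 0.0538 and 0.209), and at r = 0.981 without the 2 farthest libraries. With the fibroblast list it gave r = 0.867 and rho = 0.804 (adjusted permutation p 0.139 and 0.212), and r = 0.846 without the 2 farthest. None of these passed the threshold in the gfap line alone. Over all 24 libraries Serping1 gave r = 0.849 and rho = 0.842 with the macrophage list (adjusted permutation p 0.00264 and 0.00416), and r = 0.832 without the 2 farthest. With the fibroblast list it gave r = 0.873 and rho = 0.8 (adjusted permutation p 0.00099 and 0.00416), and r = 0.838 without the 2 farthest. These relations did not hold in every set of 6 libraries. For the macrophage list r was 0.931 in the syn libraries above 1000 CPM of Ttr and −0.442 in those below it, and 0.856 and 0.596 in the gfap libraries with fewer and more reads outside genes. For the fibroblast list the same sets gave 0.955, −0.708, 0.807 and 0.252. Over 24 libraries Serping1 also passed the threshold with the choroid plexus list (r = 0.636, adjusted permutation p 0.0222). It passed with the ependymal list too (r = 0.563, adjusted permutation p 0.0441). For rho the adjusted permutation p was 0.0384 with the choroid plexus list and 0.0698 with the ependymal list. The part of these cells in the Serping1 levels was not tested.

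In the syn line Serping1 had 3.32, 5.43 and 11.5 CPM in syn-Cre-positive brains, against 3.90, 5.33 and 9.16 CPM in syn-Cre-negative brains. The groups overlapped, and in log2 the shift was 0.18 ± 0.33 (edgeR adjusted p = 1). All 7 fibroblast markers and 2 of 7 macrophage markers were positive in that comparison, with 0 called. The fibroblast list summed to 118 to 338 CPM in syn-Cre-positive and 66.4 to 311.9 CPM in syn-Cre-negative brains, and the macrophage list to 3.22 to 9.21 CPM and 4.51 to 7.85 CPM in syn-Cre-positive and syn-Cre-negative brains. In the syn libraries above 1000 CPM of Ttr Serping1 had 3.90 to 11.5 CPM, and in those below it 3.32 to 5.96 CPM.

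C3 had log2 fold changes of 0.16 ± 0.35 in the syn and 0.16 ± 0.39 in the gfap Cre comparison (edgeR adjusted p = 1 for both), with overlapping groups. In the syn line the value turned to −0.47 without the libraries above 1000 CPM of Ttr (edgeR adjusted p = 1).

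The lines differed in 2 of the 9 members, C3 and C4b, both higher in the syn line with and without Cre. Between the Cre-negative groups, where both lines are EAAT2+/+, 31.2% of all genes tested were called and 14.6% were called higher in the syn line. Between the Cre-positive groups these shares were 27.5% and 12.8%. A share of 19.9% of all genes was called in the same direction in both comparisons. The 2 called of 9 members were a smaller share than that of all genes called in either direction. They were a larger share than those called higher in the syn line, and than that called in the same direction in both comparisons. Whether the members differ from these shares was not tested. The median log2 fold change of the members was 0.04 between the Cre-negative and 0.06 between the Cre-positive groups, where all genes had −0.02 in both. C3 and C4b were also the members whose groups did not overlap, in both comparisons, as for 11.0% and 13.3% of all genes.

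C3, the central component on which the pathways of complement converge, had 3.63, 5.49 and 10.4 CPM in syn-Cre-negative brains, against 0.27, 1.495 and 2.63 CPM in gfap-Cre-negative brains. All 6 syn libraries lay above all 6 gfap libraries. The log2 fold change was 2.05 ± 0.37 (SE, edgeR adjusted p = 0.000468), a 4.15-fold difference. Between the Cre-positive groups C3 had 3.89, 6.54 and 10.5 CPM in syn-Cre-positive brains, against 0.92, 1.599 and 2.61 CPM in gfap-Cre-positive brains, again with no overlap. The log2 fold change was 2.05 ± 0.37 (edgeR adjusted p = 0.000619). Without the 6 libraries above 1000 CPM of Ttr it was 2.23 (edgeR adjusted p = 0.00231) between the Cre-negative and 1.598 (0.0229) between the Cre-positive groups, and without library syn-Cre-negative 5 it was 2.13 (0.0005).

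C4b had 126, 164 and 338 CPM in syn-Cre-negative brains, against 72.4, 90.5 and 107 CPM in gfap-Cre-negative brains. The log2 fold change was 1.14 ± 0.20 (edgeR adjusted p = 0.000371), a 2.20-fold difference, with 6 of 6 syn libraries above every gfap library. Between the Cre-positive groups C4b had 118, 138 and 204 CPM in syn-Cre-positive brains, against 67.9, 98.8 and 108 CPM in gfap-Cre-positive brains (log2 fold change 0.67 ± 0.20, edgeR adjusted p = 0.0184). That call was lost without library gfap-Cre-positive 3 (0.59, adjusted p = 0.0507) and without the libraries above 1000 CPM of Ttr (0.47, adjusted p = 0.15). Between the Cre-negative groups C4b was also called without the Ttr-rich libraries (1.34, adjusted p = 0.00064), without syn-Cre-negative 5 (1.19, adjusted p = 0.000388) and without syn-Cre-negative 2 (0.91, adjusted p = 0.000587). C4b and its neighbour C4a share sequence, 34.6% of the 50-base windows of C4b transcripts being found in C4a. Reads of the pair may have been split or dropped, and their levels are uncertain to that extent.

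Markers of the ventricle lining differed in the same direction as C3 and C4b. The 5 ependymal markers were called higher in the syn line in both comparisons, with a median log2 fold change of 1.63 between the Cre-negative and 1.64 between the Cre-positive groups. Their sum ranged from 16.5 to 38.3 CPM in syn-Cre-positive, 17.5 to 34.2 CPM in syn-Cre-negative, 5.71 to 12.6 CPM in gfap-Cre-positive and 6.16 to 12.9 CPM in gfap-Cre-negative brains, so the lines did not overlap. The ciliogenesis regulator Foxj1, for one, had 7.04 to 17.8 CPM in syn-Cre-positive brains, against 3.52 to 5.20 CPM in gfap-Cre-positive brains. Of the 9 choroid plexus markers 9 were called higher between the Cre-negative and 7 between the Cre-positive groups. Without the libraries rich in Ttr, 1 and 0 were, while 5 and 4 ependymal markers were still called. Other lists differed between the lines too. Of 7 oligodendrocyte markers 7 were positive in both comparisons, with 6 called higher between the Cre-negative groups (median log2 fold change 0.36) and 7 between the Cre-positive groups (0.59). Of 7 blood markers 7 were positive, with 3 and 1 called higher, and of 7 neuronal markers 7 were negative, with 6 and 5 called lower, between the Cre-negative and the Cre-positive groups. Endothelial markers were called lower for 3 and 5 of 7, and microglial markers for 2 and 4 of 12, in the same order of comparisons. The part of any of these cells in the C3 and C4b levels was not tested.

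C3 also varied with the ependymal markers from mouse to mouse within groups. The r of C3 with the mean of the list was 0.817 and rho was 0.829 over 24 libraries, each with a permutation p of 1e-05, the smallest that 100000 permutations can give, and 0.00099 after adjustment over 99 relations. Without the 2 farthest libraries r was 0.769. It was 0.868 in the syn and 0.792 in the gfap line, and within the 4 sets of 6 libraries it lay between 0.515 and 0.914. In the gfap line alone the relation did not pass the threshold (adjusted permutation p 0.0538 for r and 0.209 for rho). There r was 0.569 without the 2 farthest libraries. The 3 genes most like C3 in this measure, of 13391 genes searched, were Ak7 (r = 0.849), Dnah6 (0.781) and Ccdc40 (0.754). C3 also passed the threshold with the astrocyte list (r = 0.525, adjusted permutation p 0.0255). With the ependymal list C4b gave r = 0.36 (adjusted permutation p 0.171), 0.741 in the syn and −0.0627 in the gfap line. With the astrocyte list C4b gave r = 0.651 (adjusted permutation p 0.0506), 0.867 in the syn and 0.0733 in the gfap line.

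C3 and C4b correlated at r = 0.56 and rho = 0.694 over 24 libraries (permutation p adjusted over 36 pairs 0.0118 and 0.00459), and at 0.759 without the 2 farthest libraries. The relation was uneven. It was 0.93 in the syn line and 0.25 in the gfap line. Within sets of 6 libraries it was 0.988 and 0.899 in the syn libraries above and below 1000 CPM of Ttr, 0.976 in the gfap libraries with fewer reads outside genes and −0.199 in those with more, where gfap-Cre-negative 6 had the lowest C3 of all libraries (0.27 CPM). The genes most like C4b were Plin4 (r = 0.858), Ahnak (0.828) and Serpina3n (0.823).

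**Figure D3:**
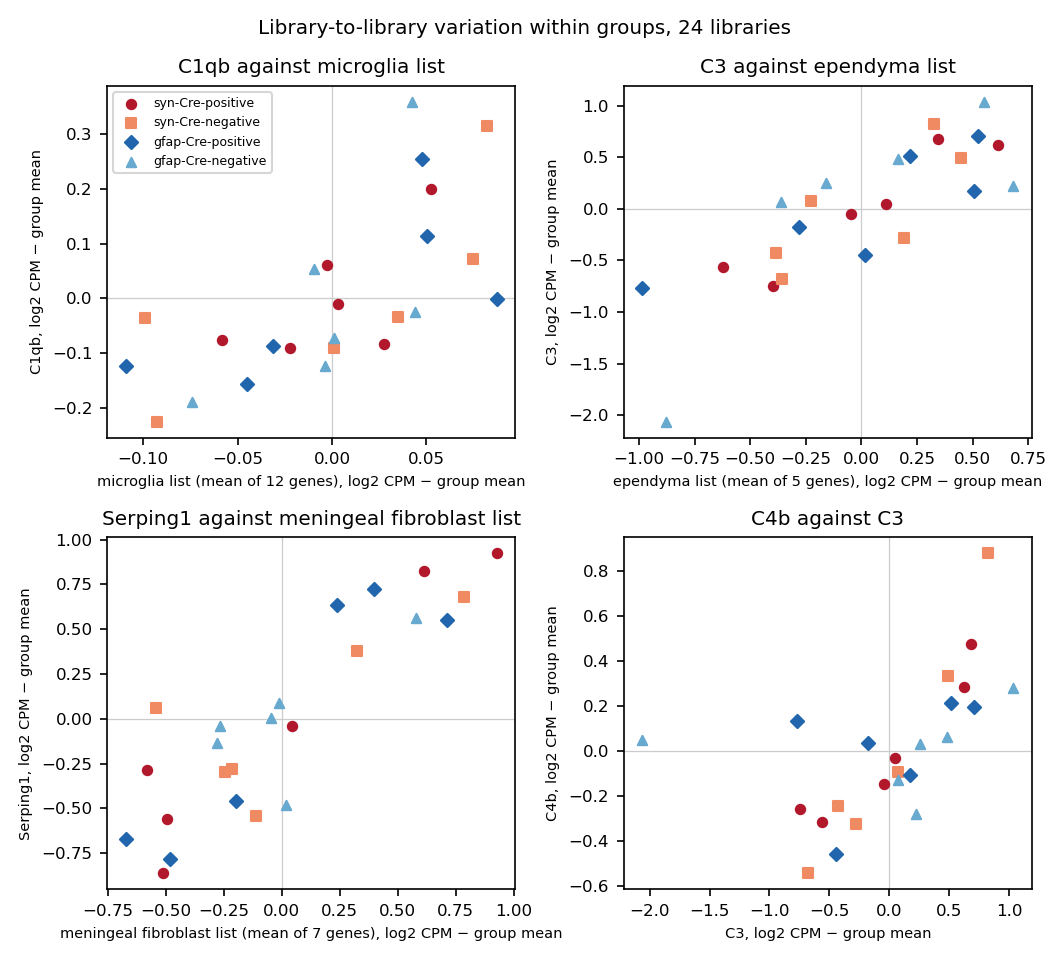
Log2 CPM minus the group mean for 4 pairs of measures, each point a library: C1qb, C3 and Serping1 against the mean of a marker list, and C4b against C3. C3 rises along the ependymal list in both lines, and 1 gfap-Cre-negative library sits far below the others in C3.

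The receptors were called in no comparison. C3ar1, the receptor of C3a, had 2.10, 2.82 and 3.20 CPM in syn-Cre-positive brains, against 1.76, 2.65 and 3.63 CPM in syn-Cre-negative brains. It had 2.18, 2.48 and 3.34 CPM in gfap-Cre-positive brains, against 2.20, 2.84 and 2.89 CPM in gfap-Cre-negative brains. The groups overlapped, and its log2 fold changes were −0.03 (95% interval −0.34 to 0.28) and −0.08 (−0.39 to 0.22) in the syn and gfap Cre comparisons. Between the lines they were 0.02 for the Cre-negative and 0.08 for the Cre-positive groups (edgeR adjusted p = 0.915 and 0.740).

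C5ar1, the receptor of C5a, had 0.48, 0.63 and 0.84 CPM in syn-Cre-positive brains, against 0.42, 0.64 and 1.17 CPM in syn-Cre-negative brains. It had 0.41, 0.59 and 0.75 CPM in gfap-Cre-positive brains, against 0.40, 0.58 and 0.62 CPM in gfap-Cre-negative brains. Its widest shift was 0.41 ± 0.25 between the Cre-negative groups (95% interval −0.10 to 0.92, edgeR adjusted p = 0.215), with 3 of 6 syn libraries above every gfap library. The gene for its ligand's precursor, Hc, had a mean of 0.31 CPM in syn-Cre-positive, 0.32 CPM in syn-Cre-negative, 0.20 CPM in gfap-Cre-positive and 0.15 CPM in gfap-Cre-negative brains, and was not called (edgeR adjusted p = 0.0596 between the Cre-negative groups).

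Cd59a, a membrane protein that blocks the last step of pore formation, was not called in any comparison of all libraries. It had 0.75, 1.93 and 3.32 CPM in syn-Cre-positive brains, against 1.29, 2.12 and 3.28 CPM in syn-Cre-negative brains. It had 1.42, 2.09 and 3.13 CPM in gfap-Cre-positive brains, against 1.62, 2.84 and 3.98 CPM in gfap-Cre-negative brains. In log2 it shifted by −0.09 ± 0.31 in the syn and −0.31 ± 0.30 in the gfap Cre comparison (edgeR adjusted p = 1 for both). Its close copy Cd59b was called in no comparison and shares 3.87% of the 50-base windows of Cd59a.

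Within the syn line the Cd59a levels fell into separate ranges that followed Ttr. The 6 syn libraries above 1000 CPM of Ttr had 2.35 to 3.32 CPM of Cd59a, and the 6 below it had 0.75 to 1.51 CPM, with 3 libraries of each syn group in each range. The 12 gfap libraries, all below 1000 CPM of Ttr, had 1.42 to 3.98 CPM. Meningeal fibroblast markers separated the same syn libraries, with sums of 174.4 to 338 CPM above and 66.4 to 133 CPM below 1000 CPM of Ttr. Over 24 libraries Cd59a gave r = 0.81 with the choroid plexus list and 0.663 with the fibroblast list. These were 0.918 and 0.803 in the syn line and 0.408 and 0.381 in the gfap line. With the microglial list Cd59a gave r = 0.812 in the gfap line (adjusted permutation p 0.0538) and −0.0661 in the syn line. Within the sets, r with the choroid plexus list was 0.888 and 0.0857 in the syn libraries above and below 1000 CPM of Ttr. It was −0.605 and −0.148 in the gfap libraries with fewer and more reads outside genes. Against gfap brains, syn brains without the Ttr-rich libraries had lower Cd59a, with a log2 fold change of −0.97 between the Cre-negative groups (edgeR adjusted p = 0.0175) and −0.81 between the Cre-positive groups (0.0580). This selection was made after the data were seen.

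Of the 50 further complement genes, 37 passed the filter on low counts, and 0 of the 37 were called in either Cre comparison or in the difference between them. The line comparisons called 7 higher and 5 lower in the syn line between the Cre-negative groups, and 5 higher and 3 lower between the Cre-positive groups. Of all genes tested 31.2% and 27.5% were called in these comparisons, with 14.6% and 12.8% called higher in the syn line. Without the Ttr-rich libraries 5 were higher and 1 lower between the Cre-negative groups, and 5 higher and 3 lower between the Cre-positive groups. Of 20194 genes tested without those libraries, 3647 and 2259 were called in these comparisons. The median log2 fold change of the 37 was 0.11 and 0.05, where all genes had −0.02 in both.

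Among genes of the first steps, C4a, the neighbour and paralog of C4b, averaged 3.99 ± 0.78 CPM in syn-Cre-negative and 1.61 ± 0.20 CPM in gfap-Cre-negative brains (log2 fold change 1.31 ± 0.15, edgeR adjusted p = 1.6e-06). It averaged 3.43 ± 0.64 CPM in syn-Cre-positive and 2.03 ± 0.37 CPM in gfap-Cre-positive brains (0.76 ± 0.15, adjusted p = 0.000773). The C1s protease gene C1s1 averaged 1.12 ± 0.49 CPM in syn-Cre-negative and 0.65 ± 0.03 CPM in gfap-Cre-negative brains (edgeR adjusted p = 0.0382), and it shares 21.8% of its 50-base windows with C1s2. Masp2, a protease of the lectin pathway, was called between the Cre-negative groups (0.97 ± 0.29, adjusted p = 0.0110), and it overlaps Tardbp on the other strand.

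Properdin (Cfp), which stabilises the C3 convertase of the alternative pathway, averaged 11.5 ± 2.41 CPM in syn-Cre-negative and 5.30 ± 1.11 CPM in gfap-Cre-negative brains (log2 fold change 1.12 ± 0.14, edgeR adjusted p = 5.48e-06). Between the Cre-positive groups it differed by 0.69 ± 0.14 (adjusted p = 0.000917), and no library overlapped in either comparison. C8g, a chain of the terminal complex, was called higher in both comparisons (0.69 and 0.75), and it overlaps Fbxw5 on the other strand. The integrin chain Itgax, part of a receptor for cleaved C3, averaged 1.056 ± 0.73 CPM in syn-Cre-negative brains, against 0.44 ± 0.08 CPM in gfap-Cre-negative brains (1.27 ± 0.31, adjusted p = 0.00308), and the difference was 1.39 ± 0.32 with Cre (adjusted p = 0.00218).

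Regulators were called in both directions. Cd46, a cofactor for the cleavage of C3b, was higher in the syn line in both comparisons (0.52 and 0.61, edgeR adjusted p = 0.00711 and 0.00263), and it overlaps A330023F24Rik on the other strand. Susd4 was lower in both, by small amounts (−0.19 and −0.18). C4bp, which binds C4b protein, was lower between the Cre-negative groups at 0.50 ± 0.21 CPM in syn and 0.93 ± 0.30 CPM in gfap brains (adjusted p = 0.00998). Sez6 (−0.22), Sez6l (−0.17) and the integrin chain Itgam (−0.30) were also lower there, and Vtn (−0.36) and Cd93 (−0.38) were lower between the Cre-positive groups. The difference between the 2 line comparisons is the same contrast as the difference between the lines' Cre effects, in which 0 of the 37 genes were called, so a call in 1 line comparison and not in the other is not shown to be a difference.

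**Figure D4:**
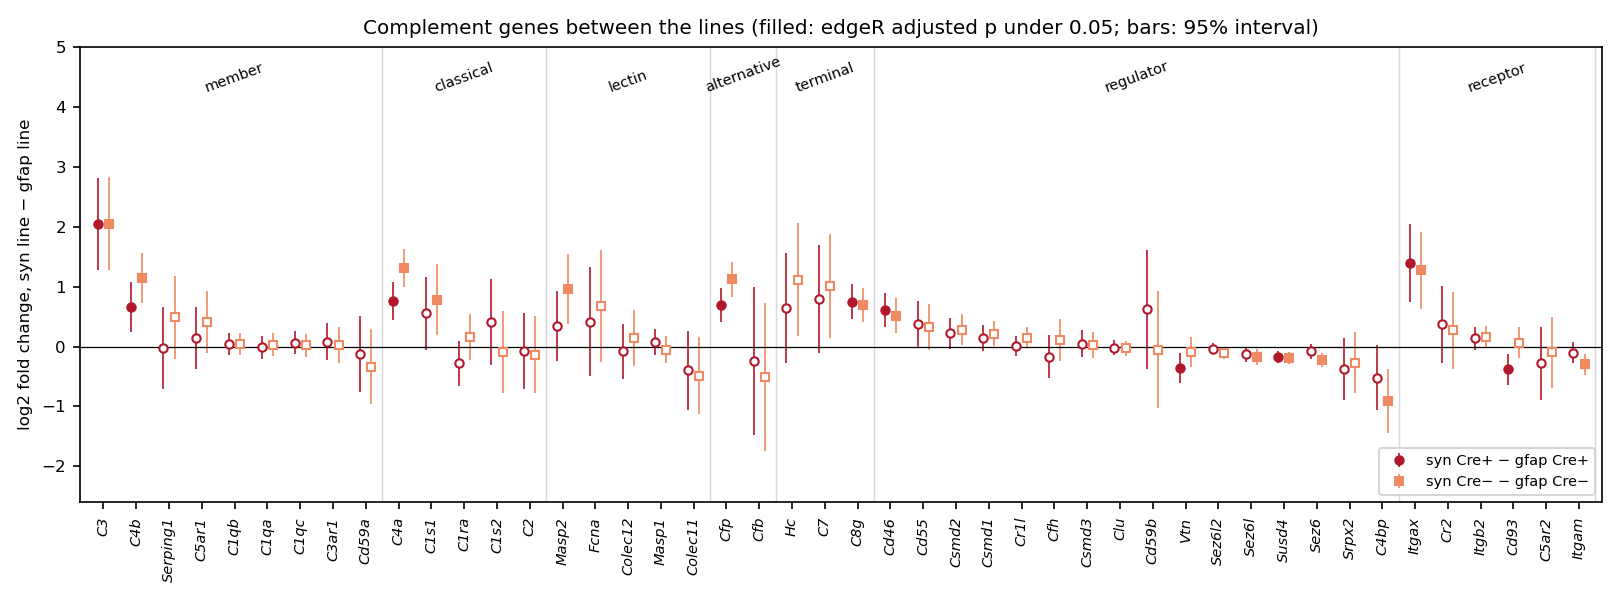
Log2 fold change of the syn over the gfap line (y axis) for the members and the other complement genes that passed the filter (x axis), between Cre-positive (circles) and Cre-negative groups (squares), with 95% intervals and filled where edgeR's adjusted p was under 0.05. C3 stands at 2.05 in both, and C4b, C4a, Cfp, C8g, Cd46 and Itgax are filled and positive in both.

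The genes most like the remaining members in within-group variation were as follows, over 24 libraries and 13391 genes. Serping1 was nearest to Aldh1a2 (r = 0.907), the collectin Colec12 (0.901) and Ptgds (0.898). C3ar1 was nearest to Ss18 (0.917), Plcl1 (0.862) and Stat3 (0.788), and Cd59a to Cpq (0.871), Col8a1 (0.846) and Acad8 (0.842). Beyond the C1q genes themselves, C1qa was nearest to Cmtm5 (0.825), C1qb to Sdc4 (0.895) and C1qc to Cst3 (0.897) and Tsc22d4 (0.877). C5ar1 had the weakest likeness, with 0.706 for Afg1l, 0.698 for Gm10177 and 0.673 for Trmt12.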

How the data were processed

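RNA from brain was sequenced on an Illumina HiSeq system in 24 libraries of 4 groups, per the labels' protocols. The authors deposited whole-number read counts per Ensembl gene ID for each library. HISAT2, HTSeq 0.6.0, DESeq2 1.6.3 and the build mm10 are named in the submitters' processing notes, with no roles or strand setting. Rows for reads outside genes, ambiguous or not unique (4.47% to 11.1%, 3.19% to 7.46% and 13.7% to 15.6%, as a percent of each file's total) were left out. Symbols were matched through GENCODE for 99.7% of IDs.

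From these counts, edgeR 4.0.16 (R 4.3.3, limma 3.58.1) fitted 1 quasi-likelihood model with 4 group means (TMM factors, filterByExpr, robust), with Benjamini-Hochberg adjustment over 19726 genes and a threshold of 0.05. The number of libraries and 20 residual degrees of freedom limit the precision, at a common dispersion of 0.0198. CPM are TMM-scaled, and log2 CPM used a prior count of 2. Standard errors come from the fit's variance. The fit was tested on simulated data. The p-values of edgeR set each group difference against the spread between these mice, with 1 estimate of it shared by the 4 groups. Permutation p-values come from shuffling libraries within groups, with no account of the splits by Ttr or by reads outside genes.

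Members and lists were chosen with earlier results of these data known. Named were all members, other complement genes called in a comparison (at most 4 per list and comparison, by p), Cd59b, C4a and Hc, the 3 genes most like each member (Pearson's r, over genes whose log2 CPM averaged 1 or more), and up to 2 genes of each cell type list by mean level. Correlations (100000 permutations within groups), promoter motifs, 50-base windows, the Ttr selection and the split by reads outside genes were chosen after the data were seen. The 2 farthest libraries were taken by distance from the median of the marker list, or of the first gene of a pair. Libraries extreme in the other measure could remain. Alternatives were RLE and upper-quartile factors, no filter, a minimum of 1 CPM in 6 or more libraries, limma-voom, DESeq2 1.42.0, only the groups compared, and each library left out. Promoters are from RefSeq (GRCm38.p6).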

Additional observations from a re-analysis of the deposited data

Results flagged for a closer look

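In 3 of 36 sets of 6 libraries (9 genes in 4 groups) 1 library lay far from the rest by Dixon's test at the 95% level, which chance flags in about 1 in 20 groups. C1qc was 54.25 CPM in library gfap-Cre-negative 4, against 37.2 to 43.6 CPM in the other 5. C3ar1 was 3.336 CPM in library gfap-Cre-positive 2, against 2.18 to 2.52 CPM in the others. C3ar1 was 2.202 CPM in library gfap-Cre-negative 1, against 2.65 to 2.89 CPM in the others. The cause was not tested.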

How the results depend on the processing

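Alternatives other than leaving out 1 library included the fits of only the groups compared, the Ttr selection and the term for reads outside genes. Over these alternatives, 334 of the members' log2 fold changes kept their direction and their side of the threshold, and 28 changed sign. C5ar1 did not reach 1 CPM in 6 libraries, so the alternative with that minimum gave no value for it. A call was gained by 1 (Cd59a, −0.97 between the Cre-negative groups without the Ttr-rich libraries) and lost by 1 (C4b, 0.47 between the Cre-positive groups without them). None of those that changed sign was called. C3 and C4b were the members called between the Cre-positive groups, and 1 was called without the Ttr-rich libraries or without gfap-Cre-positive 3, so leaving out 1 library gave 1 to 2. The cause was not tested.

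In the syn Cre comparison limma-voom gave C1qa 0.00592, C3ar1 0.016 and Serping1 −0.045, and leaving out the Ttr-rich libraries gave C1qb −0.0541, C1qc −0.0746, C3 −0.47 and Serping1 −0.30. In the difference between the lines' Cre effects limma-voom gave C1qb −0.022 and Cd59a −0.12, and leaving out the Ttr-rich libraries gave C1qb −0.12, C1qc −0.12 and C3ar1 −0.0197. C3 there was 0.00149 with RLE factors, 0.00239 with upper-quartile factors and 0.00136 with no filter. Between the Cre-negative groups limma-voom gave C3ar1 −0.0412. Between the Cre-positive groups C1qa was 0.019 with RLE factors, 0.035 with upper-quartile factors, 0.038 with at least 1 CPM in 6 libraries, 0.019 with DESeq2, 0.00737 with limma-voom, 0.017 with only those groups and 0.028 without the Ttr-rich libraries. Serping1 was 0.011, 0.028, 0.031, 0.012 and 0.011 with RLE factors, upper-quartile factors, the CPM minimum, DESeq2 and only those groups.

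Leaving out 1 library at a time, values that crossed 0 ranged as follows. In the syn Cre comparison C1qa ranged from −0.0683 to 0.0511, Serping1 from −0.0406 to 0.343, C3ar1 from −0.128 to 0.0633, C5ar1 from −0.281 to 0.0259 and Cd59a from −0.276 to 0.0809. In the gfap Cre comparison C1qa ranged from −0.0405 to 0.105 and C3 from −0.0536 to 0.404. In the difference C1qa ranged from −0.123 to 0.0303, C1qb from −0.0688 to 0.0783, C1qc from −0.0379 to 0.116, C3 from −0.244 to 0.213 and C3ar1 from −0.0432 to 0.148. Between the Cre-negative groups C1qa ranged from −0.0412 to 0.13, C1qb from −0.0323 to 0.132, C1qc from −0.0569 to 0.115 and C3ar1 from −0.0699 to 0.121. Between the Cre-positive groups C1qa ranged from −0.0355 to 0.0501, Serping1 from −0.22 to 0.149 and Cd59a from −0.288 to 0.0511.

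Over all genes, the syn Cre comparison called 1 gene, against 5 with no filter, 14 with DESeq2, 8 with limma-voom, 2 with only those groups and 3 without the Ttr-rich libraries. The difference called 2, against 3 with no filter, DESeq2 or limma-voom. Without the Ttr-rich libraries 3647 genes were called between the Cre-negative groups, where all libraries gave 6161, and 2259 between the Cre-positive groups, where they gave 5416. Upper-quartile factors gave 3219 higher of 5507 and 2913 higher of 4445 in these, against 2884 of 6161 and 2517 of 5416. No paired analysis was possible because the replicate numbers follow the order of the records and pair no mice. Of the members, C3 and Serping1 had the widest intervals in the difference between the lines' Cre effects.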
